A study of Mus musculus with 15 samples.

Results

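The 10 genes described here move ions and water across the epithelium of the colon, and they were chosen by name as a set of transporters and channels of that tissue. They are the apical exchangers Slc26a3, Slc9a3 and Slc9a2, the 3 subunits of the epithelial sodium channel Scnn1a, Scnn1b and Scnn1g, the proton pump Atp12a, the anion channel Cftr, the water channel Aqp8 and the monocarboxylate carrier Slc5a8. All 10 were found among the 23589 loci with a gene name, on 11 loci, because Slc9a2 is listed once on each strand. RNA-Seq was carried out on colon, liver, epididymal fat, hypothalamus and hippocampus of male C57BL/6 mice on 3 diets, to ask whether effects of dietary restriction outlast the restriction. AL mice ate ad libitum and were 5 months of age. DR mice received 60% of the AL intake for 1 month from 4 months of age and were also 5 months old. DR-AL mice had the same month of restriction followed by 2 months of AL feeding, and were 7 months old, so that in this group the return to AL feeding and the older age cannot be told apart. Each library came from 1 pool of RNA of 5 mice, 1 for every tissue and diet, so a difference between diets has no replicate check, and fewer cells of a type cannot be told apart from less RNA per cell.

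The colon takes up sodium, chloride, water and the short-chain fatty acids made by bacteria, and it secretes potassium, bicarbonate and, when stimulated, chloride. Electroneutral uptake of salt joins a sodium-proton exchanger to a chloride-bicarbonate exchanger in the apical membrane. In the distal colon, sodium also enters through the epithelial sodium channel, which aldosterone raises, while the colonic proton-potassium pump takes potassium back from the lumen.

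The colon libraries held 26554699 counts on named loci in AL, 33422262 under DR and 25043727 in DR-AL, within the range of 21767088 to 40500130 over the 15 libraries. The tissue, named intestinal mucosa in the methods, carried the markers of its label. The 9 markers of surface colonocytes summed to between 29585 and 32828 counts scaled to the same library total (CPM), and the 7 markers of all epithelium to between 13478 and 16005 CPM, with no marker at 0. Markers of muscle, immune and nerve cells were low but moved between the libraries. Smooth muscle markers summed to 69.1 CPM in AL, 92.3 under DR and 37.5 in DR-AL. Those of B and plasma cells summed to 29.7, 10.1 and 41.6 CPM in the same order, and those of T cells and myeloid cells to 38.5, 20.9 and 49.8 CPM. Goblet cell markers summed to 13753, 16356 and 17607 CPM, enteroendocrine markers to 515, 427 and 508 CPM, and those of enteric neurons and glia to 4.44, 4.34 and 2.36 CPM.

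The study asked about DNA methylation at promoters, and the sites at which it mainly acts in mammals are CG dinucleotides. The RefSeq promoters, 250 bases before to 50 bases after the start on GRCm38.p6, were found for 7 of the 10 genes, and those of Slc9a2, Scnn1a and Atp12a were not in the table used here. Of these 7, 4 are shown because they frame the results, with every CG in capitals. Scnn1g and Scnn1b lie next to each other on chromosome 7 and moved together between diets, Aqp8 lies on the same chromosome and was highest in DR-AL, and Slc26a3 was the most abundant member by count in each of the 3 libraries.
Scnn1g, chr7:121734229-121734528, plus strand: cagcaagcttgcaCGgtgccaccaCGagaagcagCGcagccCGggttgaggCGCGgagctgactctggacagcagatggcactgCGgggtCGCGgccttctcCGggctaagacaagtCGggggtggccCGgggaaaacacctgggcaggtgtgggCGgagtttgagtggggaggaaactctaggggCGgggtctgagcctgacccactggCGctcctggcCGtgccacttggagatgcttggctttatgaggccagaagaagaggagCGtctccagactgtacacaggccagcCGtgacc
Scnn1b, chr7:121864788-121865087, plus strand: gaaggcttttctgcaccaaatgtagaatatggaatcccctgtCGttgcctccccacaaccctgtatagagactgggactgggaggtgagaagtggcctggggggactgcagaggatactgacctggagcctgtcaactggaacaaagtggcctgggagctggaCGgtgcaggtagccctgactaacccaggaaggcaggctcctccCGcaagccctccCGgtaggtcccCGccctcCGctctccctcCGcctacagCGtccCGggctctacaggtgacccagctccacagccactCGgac
Aqp8, chr7:123462044-123462343, plus strand: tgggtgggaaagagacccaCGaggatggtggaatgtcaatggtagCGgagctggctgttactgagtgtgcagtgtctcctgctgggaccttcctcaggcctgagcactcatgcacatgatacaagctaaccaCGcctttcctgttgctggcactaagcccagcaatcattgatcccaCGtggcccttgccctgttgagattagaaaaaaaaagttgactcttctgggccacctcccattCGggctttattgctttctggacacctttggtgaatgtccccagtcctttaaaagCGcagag
Slc26a3, chr12:31437969-31438268, plus strand: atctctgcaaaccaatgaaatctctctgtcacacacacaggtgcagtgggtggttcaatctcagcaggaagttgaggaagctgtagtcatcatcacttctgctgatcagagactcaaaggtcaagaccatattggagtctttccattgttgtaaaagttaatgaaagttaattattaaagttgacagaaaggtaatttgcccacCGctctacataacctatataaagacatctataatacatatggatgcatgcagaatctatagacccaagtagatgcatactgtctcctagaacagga
CG sites numbered 18 in the Scnn1g window, 10 in Scnn1b, 6 in Aqp8 and 1 in Slc26a3. The other 3 windows held 20 sites in Slc5a8, 25 in Slc9a3 and 31 in Cftr. Over the 32851 mouse promoters of the table, 94.6% held at least 1 CG on either strand, with a median of 7 sites and quartiles of 3 and 20. The sodium channel pair, which changed in parallel, thus differed in the number of sites, and the 7 windows ran from 1 site, with 14.1% of promoters holding as few, to 31 sites, with 90.5% holding as many or fewer. The methylation of these windows was not measured in the libraries.

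All 10 genes were highest in the colon libraries. They were chosen by name as colon transporters, so the test that follows gives sizes and no separate support. In the quasi-likelihood test of edgeR over the 15 libraries, with tissue and diet as terms, each was higher in colon than the mean of the 4 other tissues, where 33.3% of 17476 genes tested were called higher in colon. The smallest difference was that of Scnn1a, at 4.95 ± 0.24 on the log2 scale (SE, 3 colon libraries against 12, adjusted p = 1.0e-08), and the largest that of Atp12a, at 12.80 ± 0.90 (adjusted p = 2.1e-07). The 5 tissues of a diet share their mice, so these libraries are no independent animals. Diet is an additive term, so the spread is what remains between the libraries of a tissue after a diet effect common to the tissues.

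**Figure D1:**
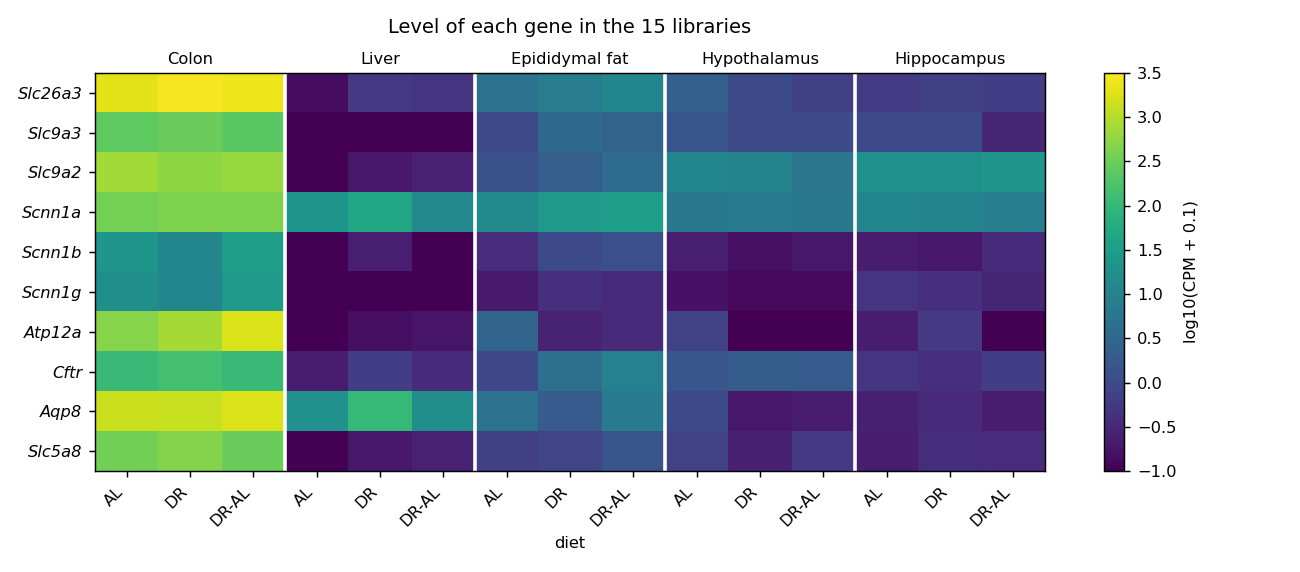
Level of each of the 10 genes in the 15 libraries, as the log10 of CPM plus 0.1, with 1 column per library grouped by tissue and diet. Every gene was highest in the 3 colon libraries. Levels outside the colon that stand out include Scnn1a in all tissues, Aqp8 in the liver and Slc9a2 in both brain regions. In DR-AL epididymal fat, Slc26a3 reached 11.7 CPM, Cftr 8.96 and Aqp8 6.80, beside 5.67 to 11.5 for Slc9a2 in the hypothalamus.

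Per length of transcript, the genes covered a wide range within the colon. Median FPKM over the 3 diets was 1255 for Aqp8, 1022 for Slc26a3, 220 for Slc9a2, 198 for Atp12a, 140 for Scnn1a, 100.4 for Slc9a3, 79.6 for Slc5a8, 20.3 for Cftr, 8.64 for Scnn1b and 5.83 for Scnn1g. The FPKM ranges over diets did not overlap between Aqp8 and Slc26a3, between Slc26a3 and the genes below it, between Slc9a3 and Slc5a8, or between Cftr and its neighbours. That of Atp12a, which ran from 130 FPKM in AL to 498 in DR-AL, overlapped those of Slc9a2 and Scnn1a, and overlaps were also seen between the ranges of Scnn1a and Slc9a3 and between those of Scnn1b and Scnn1g. RNA of Scnn1a, the α subunit that the sodium channel needs to reach the membrane in quantity, was thus far more abundant than that of the β and γ subunits. The subunit proteins were not measured.

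Between the DR and AL colon libraries, 4 of the 10 genes were called higher, 3 were called lower and 3 did not pass. A call here is an adjusted p under 0.05 in the Z test that the study describes, with a change of at least 0.32 on the log2 scale. Of 18242 genes tested, 9.04% were called higher and 10.6% lower. All 10 averaged at least 100 counts over the 3 libraries, and of the 10503 genes with such an average 12.3% were called higher and 11.4% lower. The median log2 fold change was 0.25 for the 10 genes and 0.03 for these 10503 genes. The test compares 2 libraries and not the diets, and the 95% intervals that follow cover counting error only.

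Among the apical exchangers, those of chloride and sodium did not move as one. Slc26a3, the chloride-bicarbonate exchanger whose loss causes chloride diarrhoea, had 2098 CPM in AL, 2763 under DR and 2424 in DR-AL, and was 1.32-fold higher in DR than in AL (1.30 to 1.33). Slc9a3, the sodium-proton exchanger NHE3, had 246, 294 and 227 CPM, and its 1.20-fold difference in DR (1.16 to 1.24) did not reach the fold required. Slc9a2, the sodium-proton exchanger NHE2, ran the other way, with 764 CPM in AL, 538 under DR and 641 in DR-AL, a ratio of DR to AL of 0.704 (0.690 to 0.718). The 2 sodium-proton exchangers were therefore on opposite sides of AL in the DR library, though only Slc9a2 was called. When the libraries were scaled to the 7 epithelium markers in place of their totals, Slc9a3 stood at 0.013 on the log2 scale and Slc9a2 at -0.75. On the opposite strand, the second Slc9a2 locus carried 243, 217 and 176 counts, between 1.10% and 1.21% of those on the strand of the gene. On GRCm38, the genes extend over chr12:31390871-31473917 (Slc26a3, whose RefSeq start lies within this extent), chr13:74121457-74169442 (Slc9a3) and chr1:40680574-40769273 (Slc9a2), all on the plus strand.

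The sodium channel subunits split in the same library. Scnn1a had 364 CPM in AL, 431 under DR and 434 in DR-AL, and was not called between DR and AL, with a ratio of 1.18 (1.15 to 1.21). Scnn1b had 23.2 CPM in AL, 11.6 under DR and 33.6 in DR-AL, from 615, 388 and 841 counts, and its ratio of DR to AL was 0.501 (0.440 to 0.570). Scnn1g had 17.4, 11.7 and 26.7 CPM in the same order, from 463, 390 and 669 counts, with a ratio of 0.669 (0.583 to 0.767). Both regulated subunits were lowest in DR and highest in DR-AL, and among the 10503 genes 143 fell at least as far as Scnn1b in DR, with Scnn1b counted.

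The genes lie at chr7:121865038-121918514 (Scnn1b) and chr7:121734479-121768475 (Scnn1g) on GRCm38, both on the plus strand, 96563 bases apart. Scnn1a lies on another chromosome, at chr6:125320659-125344943. These are the extents of the genes in the GENCODE M21 annotation, exons and introns included.

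Atp12a, the catalytic subunit of the colonic proton-potassium pump, stepped up from diet to diet, and the 3 libraries did not come near each other. It had 488 CPM in AL, 776 under DR and 1808 in DR-AL, from 12960, 25929 and 45278 counts, and was 1.59-fold higher in DR than in AL (1.56 to 1.62). The gene lies on chromosome 14, at chr14:56365068-56388550 of GRCm38, on the plus strand.

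Cftr, the cyclic AMP-gated chloride channel of secretion, had 111 CPM in AL, 145 under DR and 109 in DR-AL. It was 1.31-fold higher in DR than in AL (1.2496 to 1.3704). Slc5a8, which carries short-chain fatty acids into colonocytes together with sodium, showed the same order of DR above AL and DR-AL, with 347, 458 and 290 CPM, and a ratio of DR to AL of 1.32 (1.29 to 1.36). Aqp8, a water channel of surface colonocytes, had 1392 CPM in AL and 1326 in DR and was not called, with a ratio of 0.953 (0.939 to 0.966). These plus-strand genes lie at chr6:18170687-18322768 (Cftr), chr10:88885992-88929515 (Slc5a8) and chr7:123462291-123468004 (Aqp8).

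**Figure D2:**
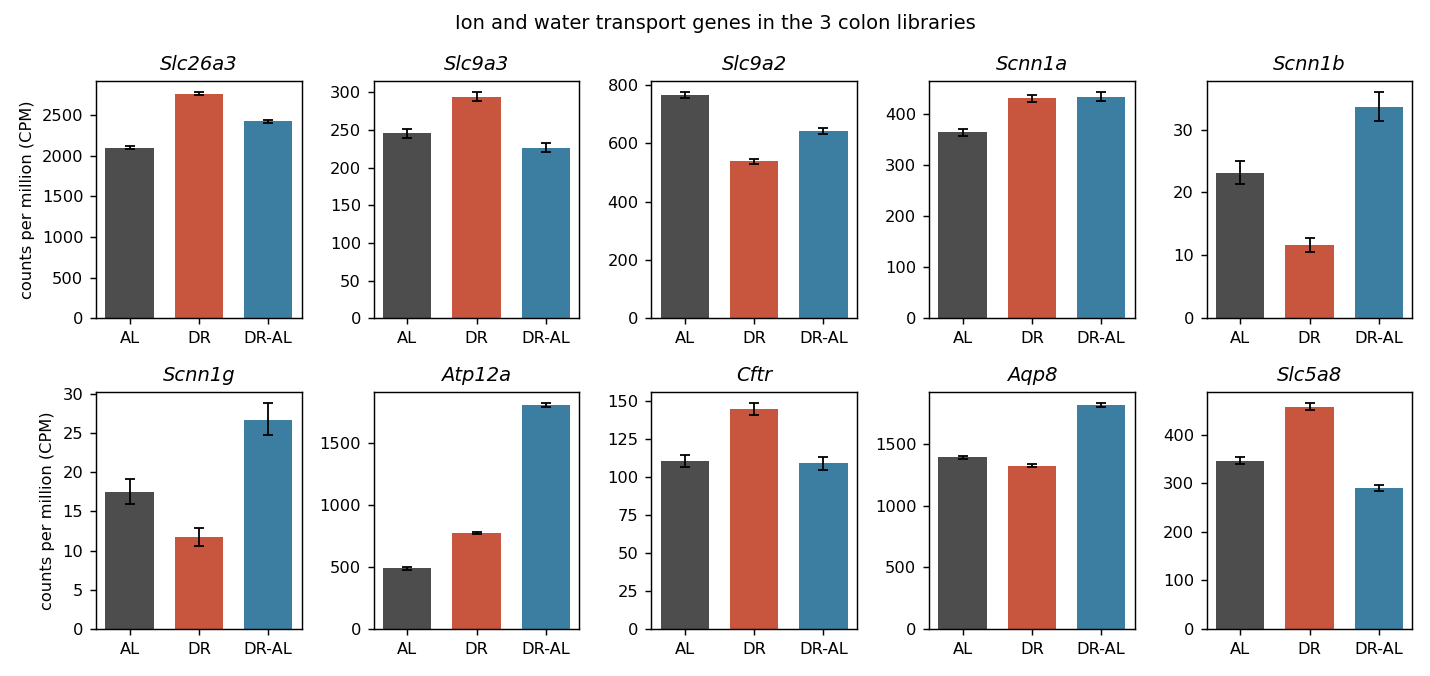
CPM of each gene in the AL, DR and DR-AL colon libraries (1 bar per library of 5 pooled mice, error bars are exact 95% Poisson intervals for counting error). Scnn1b and Scnn1g were lowest in DR and highest in DR-AL, Atp12a rose from AL to DR to DR-AL, and Slc26a3, Slc9a3, Cftr and Slc5a8 were highest in DR.

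Other cells moved with these values. The 8 markers of crypt stem and dividing cells summed to 182 CPM in AL, 340 under DR and 186 in DR-AL, and 6 of the 8 were called higher in DR, with Mki67, a marker of dividing cells, at 1206, 4394 and 1031 counts. DR was also the library in which Cftr, which is most abundant in crypts, and Slc5a8 were highest by CPM. Slc26a3 and Slc9a3 were highest there too, and the other members were not. Of the 7 markers of B and plasma cells, 6 were lower in DR and 5 higher in DR-AL than in AL, the order of Scnn1b and Scnn1g. Only 1 of these 7 averaged at least 100 counts. Of the 7 markers of T cells and myeloid cells, 4 were lower in DR and 3 higher in DR-AL. Over all genes tested, 9.04% were higher and 10.6% lower in DR, and 5.83% were higher in DR-AL. Whether these cells had a part in the values of the transport genes was not tested.

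The 3 exchange, secretion and uptake genes that were 1.31-fold to 1.32-fold higher in DR were close to the fold required. When the libraries were scaled to the 7 epithelium markers in place of their totals, which moved the median log2 fold change of the 10503 genes to -0.22, and when FPKM were used, Slc26a3, Cftr and Slc5a8 were no longer called, while Atp12a remained higher and Slc9a2, Scnn1b and Scnn1g remained lower. With an assumed biological coefficient of variation of 0.1 in the exact test of edgeR, Scnn1b and Atp12a were still called. With the 0.164 estimated over the 3 colon libraries none of the 10 was. That estimate took the 3 libraries without regard to diet, so it includes the differences between diets.

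After the return to AL feeding, 4 of the 10 genes were called higher in the DR-AL library than in the AL library, none was called lower and 6 did not pass. Of all 18242 genes, 5.83% were called higher and 8.50% lower, and of the 10503 abundant genes 7.30% and 9.81%. The median log2 fold change was 0.23 for the 10 genes and -0.0017 for the 10503 genes.

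Atp12a stood farthest from AL. Its 1808 CPM were 3.70-fold those of AL (3.63 to 3.78), and only 3 other genes of the 10503 rose as far, 0.0381% with Atp12a included. Scnn1b was 1.45-fold higher than in AL (1.31 to 1.61) and Scnn1g 1.53-fold higher (1.36 to 1.73), so both passed from below AL in the DR library to above it. Aqp8 had 1817 CPM in DR-AL and was 1.31-fold higher than in AL (1.29 to 1.32).

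With libraries scaled by their totals, the remaining genes stayed within 0.32 of AL on the log2 scale. Slc26a3 was at 1.16 of AL (1.14 to 1.17), Scnn1a at 1.19 (1.16 to 1.23) and Cftr at 0.986 (0.935 to 1.04), and the interval of Cftr was the one that included 1. Slc9a3 was at 0.923 (0.890 to 0.956), Slc9a2 at 0.839 (0.822 to 0.856) and Slc5a8 at 0.838 (0.812 to 0.864). With scaling to the epithelium markers, which moved the median log2 fold change of the 10503 genes to -0.09, Slc9a2 (-0.34) and Slc5a8 (-0.34) were called lower and Aqp8 (0.30) was no longer called, so that 3 genes were higher and 2 lower. The call of Atp12a held under each alternative scaling, filter and variance tried, and with a coefficient of variation of 0.1 it was the only one of the 4 to do so.

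Compared directly, the DR-AL library had 4 of the 10 genes above the DR library and 3 below it. Of all 18242 genes, 6.78% were called higher and 7.67% lower, and of the 10503 abundant genes 6.41% and 8.21%. Scnn1b was 2.89-fold higher in DR-AL than in DR (2.56 to 3.27), Atp12a 2.33-fold (2.30 to 2.37), Scnn1g 2.29-fold (2.02 to 2.60) and Aqp8 1.37-fold (1.35 to 1.39). Slc5a8 was at 0.634 of DR (0.617 to 0.652), Cftr at 0.753 (0.718 to 0.790) and Slc9a3 at 0.770 (0.745 to 0.796). Scnn1a did not move with the other subunits, at 1.01 of DR (0.984 to 1.03), and it was not called. With scaling to the epithelium markers, Cftr (-0.24) and Slc9a3 (-0.21) were no longer called and Slc9a2 (0.42) was called higher, and with FPKM at a pseudocount of 0.1 the same 3 genes stood at -0.15, -0.29 and 0.35 with the same change of calls. Scnn1b, Scnn1g and Atp12a were called also with the estimated coefficient of variation of 0.164. This comparison shares a library with each of the other 2 and is not independent of them.

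**Figure D3:**
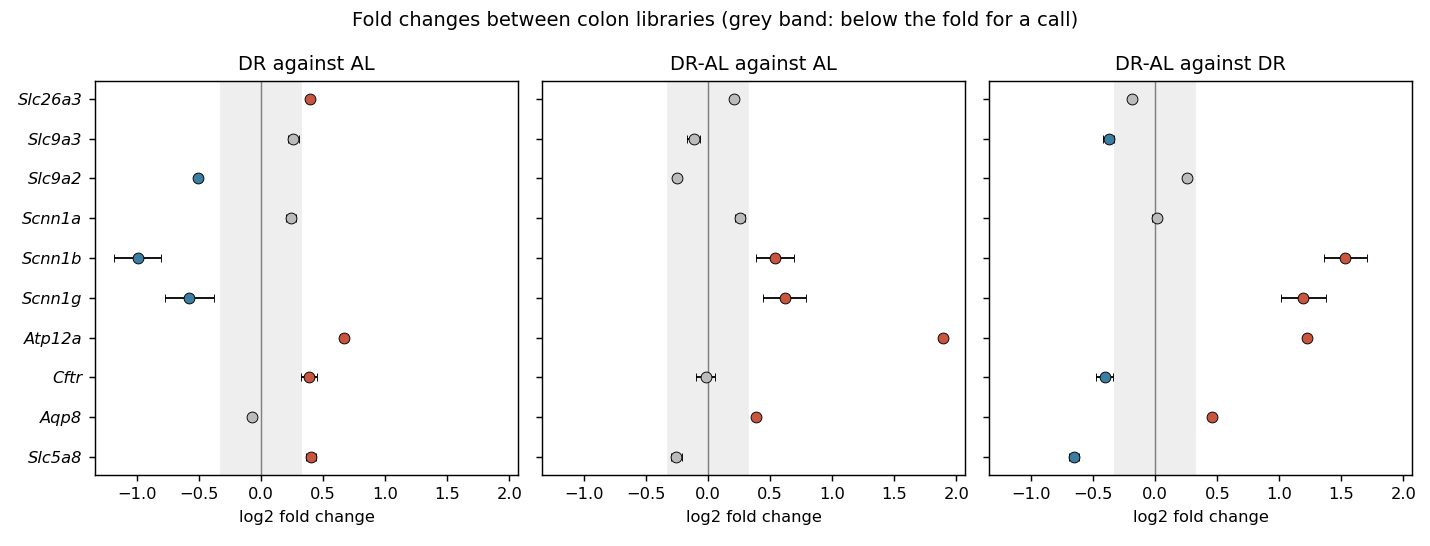
Log2 fold change of each gene between pairs of colon libraries, with exact 95% intervals for counting error (red, called higher, blue, called lower, grey, not called, and the grey band marks changes under 0.32). The point farthest from 0 is Atp12a in DR-AL against AL, at 1.89, and Scnn1b and Scnn1g lie left of 0 in DR against AL and right of 0 in the other 2 panels.

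The genes that work with these transporters were read from 9 lists of 87 genes. Against AL, 11 were higher and 15 lower in DR, and 5 higher and 10 lower in DR-AL. Over all genes tested, those shares were 9.04% and 10.6% in DR and 5.83% and 8.50% in DR-AL. Over the 10503 abundant genes they were 12.3% and 11.4% in DR and 7.30% and 9.81% in DR-AL. Between DR-AL and DR, 12 of the list genes were higher and 10 lower. The shares there were 6.78% and 7.67% of all genes, and 6.41% and 8.21% of the abundant genes. In each comparison 2 of the list genes were not tested for lack of counts. Genes named are those averaging at least 100 counts that changed at least 1.5-fold from AL in either diet, and 10 met that rule.

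Among the pumps and their partners, 2 of 7 genes tested were higher in DR and 1 in DR-AL, with none lower than AL. Fxyd4, a small regulator of the sodium-potassium pump that is induced by aldosterone in the kidney and colon, had 967 counts in AL, 1389 under DR and 2200 in DR-AL, or 36.4, 41.6 and 87.8 CPM. It was 2.41-fold higher in DR-AL than in AL (2.24 to 2.60), the largest rise among the 10 named genes in that library, and like Atp12a it stood highest in DR-AL.

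Of the 16 genes of the aldosterone receptor, its targets and the regulators of the sodium channel, none was higher and 1 lower in DR than in AL, and none was higher and 3 lower in DR-AL. Usp2, a deubiquitinase that acts on the sodium channel in cultured cells, had 1116, 1611 and 537 counts in AL, DR and DR-AL, a ratio of DR-AL to AL of 0.510 (0.459 to 0.566). Per1, a clock gene that aldosterone also induces, had 1928, 2102 and 1111 counts, with a ratio of 0.611 (0.567 to 0.658). Sgk1, the kinase that aldosterone induces and that keeps the sodium channel at the membrane, was lower in DR than in AL, by 0.52 on the log2 scale (13272 and 11683 counts), and at 0.21 in DR-AL, where it was not called. Hsd11b2, which guards the mineralocorticoid receptor from glucocorticoids, was not called in either, at -0.25 and 0.18. The median log2 fold change of the list was -0.04 in DR and 0.05 in DR-AL. Sgk1 and Hsd11b2 were outside the rule for names and were chosen after their values were seen.

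Potassium channels and the other chloride channels were called in small numbers. Of 5 potassium channel genes, 2 were higher in DR and 2 in DR-AL, with none lower than AL. Kcne3, the partner of the basolateral potassium channel that supports chloride secretion, had 2430, 5165 and 2469 counts and was 1.69-fold higher in DR than in AL (1.61 to 1.77), the library in which Cftr was highest. Of 8 other chloride and anion channel genes tested, 2 were higher and 2 lower in DR, and 1 higher and 1 lower in DR-AL. Clca4, of the family of calcium-activated chloride channel regulators, had 1876, 3909 and 2440 counts, and was 1.66-fold higher in DR (1.57 to 1.75) and 1.38-fold in DR-AL (1.30 to 1.47).

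The water channels other than Aqp8 did not follow it. Aqp4, a basolateral water channel, had 7043 counts in AL, 20550 under DR and 6217 in DR-AL, and was 2.32-fold higher in DR than in AL (2.26 to 2.38), the largest rise in DR among the named genes. Aqp11, an aquaporin of intracellular membranes, had 965, 760 and 521 counts, at 0.626 of AL in DR (0.568 to 0.689) and 0.572 in DR-AL (0.514 to 0.638). Over the 7 other aquaporins, 1 was higher and 3 lower in DR, and none higher and 2 lower in DR-AL.

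Of the 9 genes of guanylin and cyclic nucleotide signalling, which sets fluid secretion, none was higher and 2 were lower in DR, and none was higher and 1 lower in DR-AL. Prkg2, the cyclic GMP-dependent kinase that phosphorylates Cftr and inhibits NHE3, had 1004 counts in AL, 467 under DR and 487 in DR-AL, at 0.370 of AL in DR (0.330 to 0.413) and 0.514 in DR-AL (0.461 to 0.574). This was the largest fall among the named genes in DR.

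Among 13 claudin and tight junction genes, which set the leak between cells, 1 was higher and 3 lower in DR, and 1 was higher in DR-AL with none lower. Cldn8, a claudin that limits the back-leak of sodium, had 1246, 2883 and 2505 counts, and was 1.84-fold higher in DR (1.72 to 1.97) and 2.13-fold in DR-AL (1.99 to 2.28). Cldn4 had 6580, 5090 and 5340 counts, at 0.615 of AL in DR (0.592 to 0.638) and 0.861 in DR-AL (0.830 to 0.892). The 12 exchangers and scaffolds had 1 gene higher and 2 lower in DR, and 3 lower in DR-AL. The 8 genes of short-chain fatty acid uptake and sensing had 2 higher and 2 lower in DR, where Slc5a8 was highest, and none called in DR-AL.

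**Figure D4:**
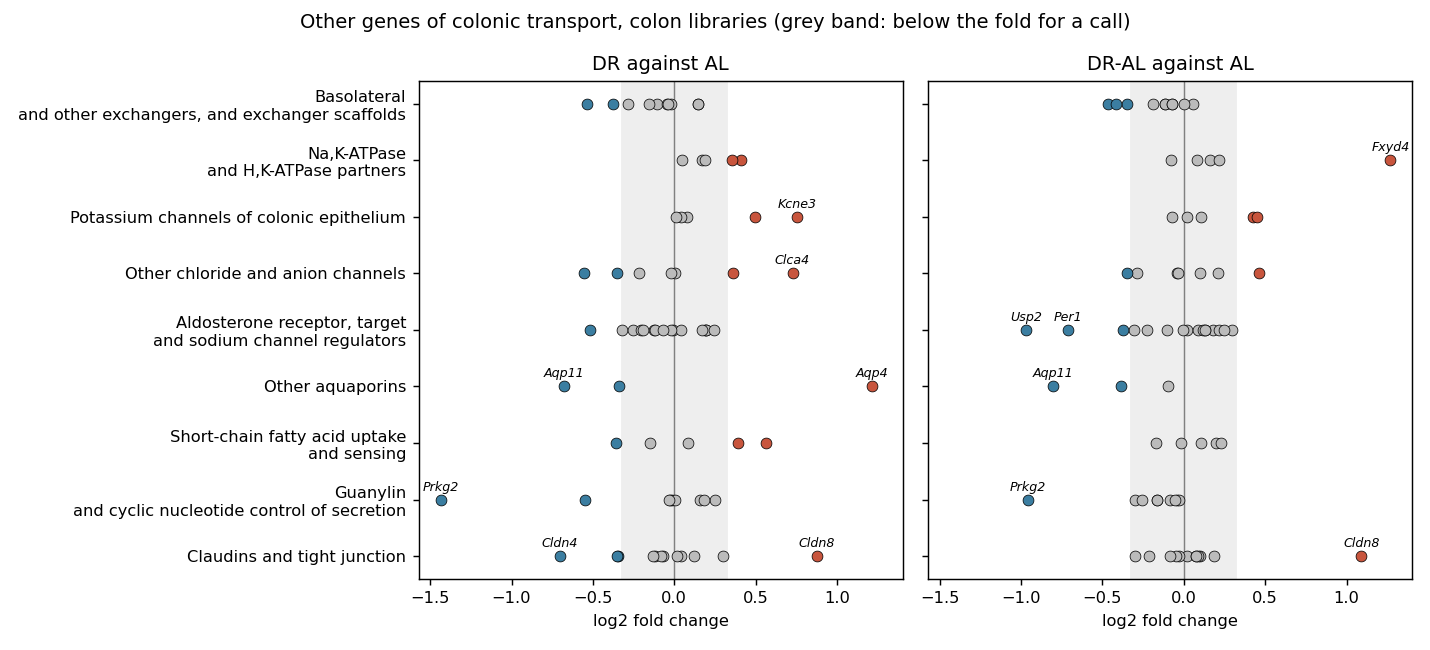
Log2 fold change from AL of the genes of 9 lists that work with the colonic transporters, in DR and in DR-AL, 1 point per gene averaging at least 100 counts (red, called higher, blue, called lower, grey, not called, and the grey band marks changes under 0.32). Most points lie in the band, and the labelled ones changed at least 1.5-fold, with Aqp4 at 1.21 and Prkg2 at -1.43 in DR and Fxyd4 at 1.27 in DR-AL.

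Several of these genes change along the length of the colon, and so do genes of position. Hoxb13, the most posterior gene of its cluster and a marker of the distal colon, had 8356 counts in AL, 15283 under DR and 11784 in DR-AL, and was called higher in both. The 7 loci of posterior Hox genes and Prac1 found, Hoxb13 among them, summed to 573 CPM in AL, 750 under DR and 709 in DR-AL. Against AL, 2 were higher and 0 lower in DR. In DR-AL only 1 was higher, which was Hoxb13, and 2 were lower. The median log2 fold change of the list was 0.12 in DR and -0.26 in DR-AL, so in DR-AL the sum and the median lay on opposite sides of AL. Among markers of the small intestine, Slc10a2, the ileal bile acid transporter, had 3515, 1953 and 1458 counts and Alpi, an intestinal alkaline phosphatase, 2301, 1073 and 915. That list was highest in AL, at 239 CPM against 102 in DR and 110 in DR-AL, with Fgf15 at 0 in all 3 libraries and Lct at 0, 1 and 0 counts. Which stretch of the colon was taken is not given in the sources used here, and its part in the values of Atp12a and the sodium channel subunits was not tested.

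**Figure D5:**
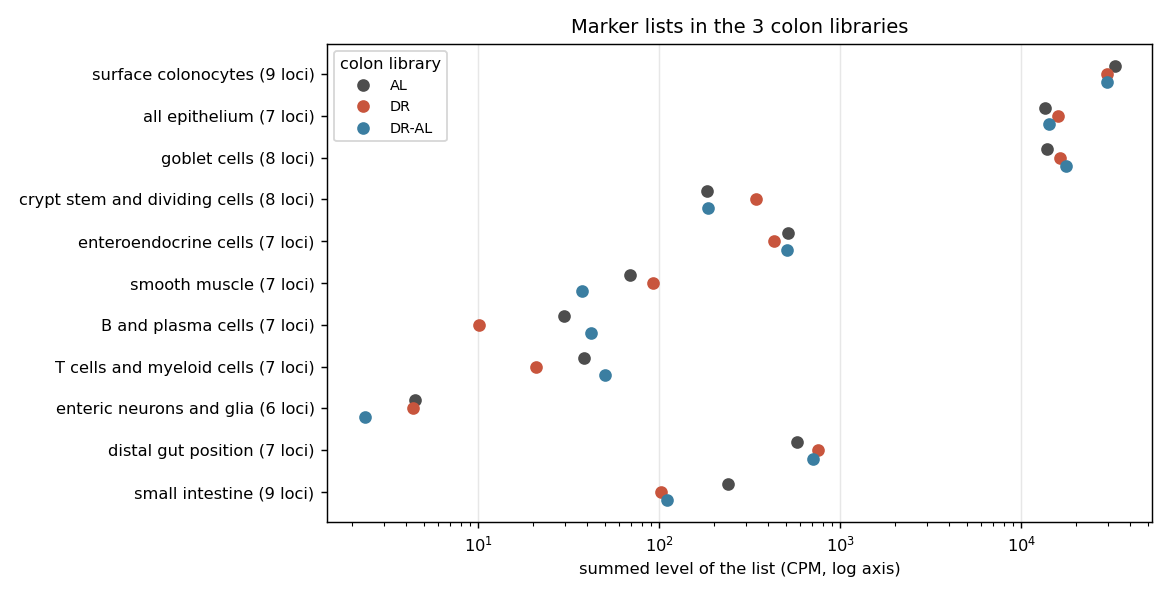
Summed CPM of each marker list in the 3 colon libraries, on a log axis, with 1 point per library. Epithelial lists lie close together, while dividing cell markers were highest in DR (340 CPM), small intestine markers highest in AL (239 CPM) and immune cell markers lowest in DR.

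Outside the colon, 2 of the genes had over 100 counts in each liver library, Aqp8 and Scnn1a, and both were called higher in the DR liver than in the AL liver, where 18.0% of 17408 genes were called higher. Aqp8, which hepatocytes also use for water in bile formation, had 458 counts in AL, 2281 under DR and 410 in DR-AL, or 18.5, 105 and 16.7 CPM, and was 5.66-fold higher in DR than in AL (5.12 to 6.27). Scnn1a had 575, 1090 and 317 counts, 2.15-fold higher in DR (1.95 to 2.39) and at 0.557 of AL in DR-AL (0.484 to 0.638). In the liver Aqp8 was thus highest in DR and in the colon highest in DR-AL.

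The other 8 genes had at most 12 counts in a liver library. Slc9a3 and Scnn1g were at 0 in all 3, where a count of 0 allows up to 3 counts. Slc9a2 was the gene of the set with the highest counts in the hippocampus, with 752, 569 and 560 in AL, DR and DR-AL, and had 340, 353 and 177 in the hypothalamus. Both brain regions also carried Scnn1a, with 194 to 241 counts in the hypothalamus and 209 to 458 in the hippocampus.

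Low counts of colon genes in the hypothalamus were for several genes highest in the AL library. Slc26a3 had 69, 33 and 19 counts in AL, DR and DR-AL, Aqp8 had 27, 3 and 4, and Atp12a 19, 0 and 0, beside 278, 14 and 10 counts of Lypd8, a marker of surface colonocytes. Slc5a8 had 20, 5 and 14 counts, and was called lower than AL in DR but not in DR-AL. Others, with Slc9a3 at 42, 31 and 32 counts and Cftr at 45, 66 and 61, were not highest in the AL library by as much or at all. Against the colon AL library, the traces in that library were 0.131% of the CPM for Atp12a and 0.0654% for Aqp8. In epididymal fat, Atp12a was highest in AL, with 70, 4 and 7 counts, and Lypd8 had 522, 391 and 54. Slc26a3, with 120, 184 and 321 counts, and Aqp8, with 121, 43 and 186, were highest in DR-AL there by counts. Cftr was too, with 22, 103 and 245, and Slc9a3 had 24, 76 and 72. By FPKM, Slc26a3 in fat was at 1.23, 1.39 and 1.05 and Aqp8 at 2.40, 0.598 and 1.18, so neither was highest in DR-AL. Whether colon RNA reached these libraries was not tested.

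Over all 15 libraries, the genes with patterns most like these were read from the correlation of log2 CPM across libraries, in which the libraries of a tissue share their level. The genes nearest to Atp12a were Sycn, Tm4sf20 and Hoxb13, with r of 0.997, 0.996 and 0.995, and those nearest to Slc26a3 were Ildr1, Vil1 and Rhbdl2, with r of 0.998, 0.997 and 0.997. Scnn1b was nearest to Crisp3, Tmem139 and Abp1 (r of 0.991, 0.990 and 0.990) and Scnn1g to Sprr2a1, Clps and Tph1 (0.994, 0.994 and 0.994). Between 73 genes for Slc9a2 and 517 for Slc26a3 reached 0.95, so that these neighbours are the first among many.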

How the data were processed

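The table deposited by the authors has counts and FPKM for 33603 loci in 15 libraries, and each of its 30 columns was used. By the methods, paired reads of ribosome-depleted, stranded libraries were trimmed at a base quality of 30 and aligned to mm10, and duplicates were removed. The deposited counts are whole numbers without normalization. The deposited FPKM are scaled by transcript length and library. The submitters' processing notes name mm9 and DESeq2. Positions in the table overlap the GRCm38 genes for 2 of the 10 members (Slc9a2 and Cftr), so coordinates come from GENCODE M21 on GRCm38. Loci without a name took 0.258% to 1.39% of counts and were left out.

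The members and lists were chosen with earlier results of these data known. Groups came from the labels. The Z test of the methods compared square roots of counts over library totals with Poisson variance, on genes with at least 1 count over the 3 colon libraries, with Benjamini-Hochberg adjustment, calling an adjusted p under 0.05 together with a change of 0.32 or more on the log2 scale, the fold threshold of the methods, up or down. Log2 fold changes used a pseudocount of 0.5, and ratios have exact Clopper-Pearson 95% intervals. A count of 0 allows up to 3 counts. Tissues were compared with edgeR 4.0.16 (TMM, filterByExpr, glmQLFit, glmQLFTest) in R 4.3.3, and both tests were tested on simulated data. Named genes are the 10 members, genes of the lists with a mean of at least 100 counts and a 1.5-fold change from AL, defining markers, and the 3 genes nearest to a member by Pearson correlation of log2(CPM + 1). Where a symbol has several loci, that with the most colon counts was used. Clca1 is in both the anion channel and the goblet cell lists.

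The alternatives were DESeq2 1.42.0 size factors, TMM, totals without the 10 most abundant genes, a mean of at least 10 counts, FPKM with pseudocounts of 0.1 and 1, a fold change of 2, a pseudocount of 1, and exact tests with a coefficient of variation of 0.1 or that estimated over the colon libraries. For tissues, DESeq2, no filter, no diet term and each colon library or other tissue left out were tried. Scaling to the 7 epithelium markers was chosen after seeing the data. The count of CG sites in promoters was also chosen after seeing the data, in place of a search for other motifs. A result within the lists is not reported here. Counting error, not the spread between pools of mice, is set by the counts, which lie between 388 and 92347 for the members in colon.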

Additional observations from a re-analysis of the deposited data

Results flagged for a closer look

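Aqp8 and Cftr moved in opposite directions in another tissue than in the colon between the DR and DR-AL libraries. Each change was called by the Z test, which has no replicate check, since each tissue and diet has 1 library. The difference between the tissues was not tested. In the liver, Aqp8 was lower in DR-AL than in DR, with a log2 fold change of -2.64 (2281 and 410 counts), while in the colon it was higher, at 0.45. In epididymal fat, Cftr was higher in DR-AL than in DR, with a log2 fold change of 0.99 (103 and 245 counts), while in the colon it was lower, at -0.41. By FPKM, Cftr was 0.339 in the DR fat library and 0.342 in the DR-AL fat library.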

How the results depend on the processing

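The 10 genes were higher in colon than in the other tissues in every alternative, including those without 1 colon library or 1 other tissue (10 to 10 genes). The number of the 10 called between DR and AL was 7, and it was 0 with a fold change of 2, 4 with scaling to the epithelium markers, 4 with FPKM at either pseudocount, 2 with a coefficient of variation of 0.1 and 0 with the estimated one. Between DR-AL and AL it was 4, 5 with epithelium scaling (3 higher and 2 lower), and 1 with a fold change of 2 or either coefficient of variation. Between DR-AL and DR it was 7, 6 with epithelium scaling or FPKM at either pseudocount, and 3 with a fold change of 2, 4 with a coefficient of variation of 0.1 and 3 with the estimated one. The signs that turned were all of genes not called: Scnn1a in DR against AL (-0.0064 with epithelium scaling), Cftr in DR-AL against AL (0.0024 with TMM, 0.074 and 0.070 with FPKM), and Slc26a3 (0.049 and 0.049) and Scnn1a (-0.056 and -0.056) in DR-AL against DR with FPKM. The cause was not tested. Over all genes, the share of calls that were higher moved from 46.0% to 12.0% (DR against AL), from 40.7% to 22.9% (DR-AL against AL) and from 46.9% to 75.4% (DR-AL against DR) with epithelium scaling, where medians of abundant genes moved to -0.22, -0.09 and 0.14. With FPKM it was 50.8% or 59.7% for DR-AL against AL and 58.3% or 65.3% for DR-AL against DR. Calls higher and lower numbered 1649 and 1937 in DR against AL, 353 and 692 with a fold change of 2, 306 and 471 with a coefficient of variation of 0.1, and 69 and 166 with the estimated one. In DR-AL against AL they numbered 1064 and 1551, then 261 and 471, 113 and 226, and 24 and 36, and in DR-AL against DR 1236 and 1400, then 540 and 578, 344 and 323, and 178 and 133. With FPKM at a pseudocount of 0.1 they were 2634 and 3765, 3035 and 2935, and 3383 and 2420. At a pseudocount of 1 they were 1205 and 1642, 1396 and 944, and 1505 and 799, so the number of calls with FPKM depended on the pseudocount. No paired analysis was possible because the labels carry no replicate numbers and each tissue and diet has 1 library, though the comparison of tissues has diet, and with it the shared mice, as a term.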
